A study of Mus musculus with 4 samples.

Results

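Taste receptor genes were taken as every row of the count table whose symbol begins with *Tas1r* or *Tas2r* followed by a number, which gave 38 of 23337 genes: 3 *Tas1r* genes and 35 *Tas2r* genes. Their RNA was measured by RNA-seq in medullary thymic epithelial cells (mTECs), sorted from the thymus of 4-week-old C57BL/6 mice as CD45-EpCAM+UEA-1+Ly51- cells. The 2 libraries labelled wild type, WT 1 and WT 2, were from mice without Cre. The 2 labelled Sirt6-/-, named Sirt6 cKO 1 and 2 here, were from mice with a loxP-flanked *Sirt6* and Foxn1-Cre, which acts in thymic epithelial cells of both cortex and medulla. The study's methods call the samples of a group independent and parallel, but how many animals stood behind each, and whether litters were shared, was not stated in the sources used here. The p-values below therefore measure the spread between these libraries, of which some may be technical. Total counts ran from 61102704 to 65907745 per library, and 3 counts, the limit above which a gene was called detected, corresponded to 0.0458 to 0.0497 CPM (the count of a gene scaled to a library of 1000000 counts).

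Taste receptors are G protein-coupled receptors of taste buds. The Tas1r proteins pair with each other to sense sugars (Tas1r2 with Tas1r3) and amino acids (Tas1r1 with Tas1r3), whereas each Tas2r protein is a receptor for bitter compounds encoded by a single coding exon. Outside the tongue the bitter receptors are known from tuft cells, chemosensory epithelial cells that use the same gustducin, phospholipase C and Trpm5 cascade, and tuft cells form one of the mTEC subsets of the thymic medulla. Expression of receptors from many tissues is also a property of mTECs, which display self-antigens to developing T cells.

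In these gene counts, the targeted gene did not separate the groups in the way of the labels. *Sirt6* was counted 622 and 755 times in WT 1 and WT 2, and 882 and 835 times in Sirt6 cKO 1 and 2. The log2 fold change between these groups was 0.37 ± 0.32 (SE; edgeR adjusted p = 0.80). The study itself reports that *Sirt6* was inactivated. It used a western blot of cultured thymic epithelial cells and quantitative PCR of sorted medullary and cortical cells. A loxP-flanked allele can leave counted exons in place, and which exons were removed was not analysed here. "Sirt6 cKO" below therefore means the libraries labelled so. All 9 mTEC markers listed for the check (such as *Epcam*, *Aire* and *Krt5*) had counts, with a summed level of 2372 and 2541 CPM in WT and 2869 and 3558 CPM in Sirt6 cKO.

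The *Tas2r* genes lie in 2 groups on mouse chromosome 6 (GRCm38, the same assembly as mm10, with GENCODE genes). The first group holds 9 genes between 23969161 and 42435464 and the second 24 genes between 131629823 and 133055816, while *Tas2r134* is on chromosome 2 and *Tas2r119* on chromosome 15. All 35 are annotated with 1 exon, and none overlaps another annotated gene. The 3 *Tas1r* genes are on chromosome 4. *Tas1r2* shares 1510 exonic bases with the same-strand gene *Gm21969*, which is not in the count table, and *Tas1r3* shares 36 exonic bases with *Dvl1* on the other strand. How reads were assigned to strands was not given in the sources used here.

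Sequence likeness between the receptors bears on whether reads of one could be counted for another. Over the 595 pairs of *Tas2r* transcripts, 57.6% to 86.3% of aligned bases were identical, with a median of 63.8%. The 4 closest pairs were *Tas2r110* and *Tas2r123* (86.3%), *Tas2r109* and *Tas2r117* (81.4%), *Tas2r102* and *Tas2r124* (80.4%) and *Tas2r104* and *Tas2r105* (74.9%). *Tas2r102* and *Tas2r124* are shown because their counts went in opposite directions. In their most alike stretch of 80 bases (positions 736 to 815 of the *Tas2r102* transcript and 679 to 758 of the *Tas2r124* transcript), 74 bases were identical, and the 6 that differ are in capitals.
Tas2r102: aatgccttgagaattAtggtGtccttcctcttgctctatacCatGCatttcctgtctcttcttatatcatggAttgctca
Tas2r124: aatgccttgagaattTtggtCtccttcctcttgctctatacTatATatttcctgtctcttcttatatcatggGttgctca
No run of 50 bases was shared between these 2 transcripts, nor between either of them, *Tas2r104*, *Tas2r105*, *Tas2r107*, *Tas2r108*, *Tas2r121* or *Tas2r138* and a transcript of any other gene. *Tas2r110* and *Tas2r123* did share a run of 120 bases, at positions 596 to 715 in both.
Tas2r110 and Tas2r123: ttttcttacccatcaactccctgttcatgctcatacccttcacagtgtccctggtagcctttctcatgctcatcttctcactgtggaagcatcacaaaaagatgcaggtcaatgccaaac
Runs of 50 bases shared with another transcript made up 47.1% of those in *Tas1r2* (with *Gm21969*), 38.6% in *Tas2r117* (mostly with *Gm18690*, which is not in the count table), 7.66% in *Tas2r123*, 7.45% in *Tas2r110* and 5.99% in *Tas2r109*, and none in the other members. The counts of these 5 genes are uncertain to that extent.

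The promoters were searched because the tuft cell factor Pou2f3 belongs to the POU family, whose members are known to bind the octamer ATGCAAAT. RefSeq promoters (GRCm38.p6, from 250 bases before to 50 after the start site) were found for 34 of the 38 genes, all but *Tas2r116*, *Tas2r117*, *Tas2r121* and *Tas2r136*. The octamer stood on one or the other strand in 7 of the 34 (20.6%), against 570 of 32851 promoters in all (1.74%). Of the 7, 6 belong to the first group on chromosome 6 and read ATTTGCAT, the reverse complement, between 124 and 194 bases before the start site. The seventh, *Tas2r107*, is in the second group and reads ATGCAAAT 236 bases before it. The windows are given 5′ to 3′ on the strand of the gene, with the octamer in capitals.
Tas2r118, chr6:23970157-23970204 (minus strand): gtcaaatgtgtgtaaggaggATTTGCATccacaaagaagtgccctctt
Tas2r135, chr6:42405366-42405413 (plus strand): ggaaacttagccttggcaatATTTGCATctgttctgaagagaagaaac
Tas2r108, chr6:40493426-40493473 (plus strand): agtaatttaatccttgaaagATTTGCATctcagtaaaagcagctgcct
Tas2r144, chr6:42215151-42215198 (plus strand): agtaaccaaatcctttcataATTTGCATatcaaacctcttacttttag
Tas2r137, chr6:40491026-40491073 (plus strand): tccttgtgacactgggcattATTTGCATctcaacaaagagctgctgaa
Tas2r126, chr6:42434321-42434368 (plus strand): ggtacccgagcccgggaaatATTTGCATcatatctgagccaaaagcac
Tas2r107, chr6:131660358-131660399 (minus strand): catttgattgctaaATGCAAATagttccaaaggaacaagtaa
The *Tas2r108* promoter, of the receptor with the most counts in every library, is given whole for the 250 bases before the start site (chr6:40493342-40493591, plus strand), beside that of *Tas2r105* (chr6:131687464-131687713, minus strand), the receptor with the most counts in the second group, which has no octamer.
Tas2r108: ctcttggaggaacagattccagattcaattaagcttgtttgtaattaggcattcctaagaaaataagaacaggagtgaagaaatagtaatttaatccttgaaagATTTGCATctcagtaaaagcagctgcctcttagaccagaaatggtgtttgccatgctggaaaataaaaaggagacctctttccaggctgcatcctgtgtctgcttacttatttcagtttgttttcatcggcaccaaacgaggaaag
Tas2r105: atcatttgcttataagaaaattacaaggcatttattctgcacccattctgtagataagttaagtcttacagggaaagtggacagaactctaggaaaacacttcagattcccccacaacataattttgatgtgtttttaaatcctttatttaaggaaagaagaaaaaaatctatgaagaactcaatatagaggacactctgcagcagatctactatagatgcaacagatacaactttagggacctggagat
The promoters of taste receptor genes are AT-rich, with a median of 37.3% G and C against 52.7% over all promoters. The octamer was 1 of 13 words searched on both strands, and ATTTGTTT, another AT-rich word, also stood in 7 of the 34 (20.6%), against 2.02% of all promoters. The shortened octamers ATGCAAA and TGCAAAT, which overlap it, stood in 12 and 9 of the 34 promoters (4.63% and 4.02% of all), and TATAAA in 10 (13.6% of all). CAGCTG was in 5 (16.3% of all), TATTTATA in 2 (1.70% of all), and GAGGAAGT, GGGAAGT and TTGTTTAC in 1 each (3.20%, 5.72% and 1.23% of all). ATGCATAT, AGGAAGTG and CACGTG were in none of the 34 (0.77%, 4.07% and 7.15% of all). The octamer share was 2.65% of 944 *Olfr* promoters (35.0% G and C) and 1.95% of 205 *Vmn1r* promoters (36.0%). It was in 2 of 15 promoters of the taste transduction list and 1 of 19 of the tuft cell list described below. The 7 receptors with the octamer summed to 21.6 and 32.7 CPM in WT and to 19.1 and 5.66 CPM in Sirt6 cKO, and the 24 with a promoter and no octamer to 30.5 and 35.5 CPM in WT and to 9.41 and 5.71 CPM in Sirt6 cKO.

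More bitter receptors were detected in each WT library than in each Sirt6 cKO library. Of the 35 *Tas2r* genes, 22 had over 3 counts in WT 1 and 23 in WT 2, against 20 in Sirt6 cKO 1 and 16 in Sirt6 cKO 2. As shares these were 62.9%, 65.7%, 57.1% and 45.7%, while the share of all 23337 genes detected was 82.1%, 78.6%, 79.3% and 81.4% in the same order. The 3 *Tas1r* genes were detected in every library. No test was made on these numbers, since an exact permutation test of 2 against 2 libraries cannot give a p below 1 in 3.

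**Figure D1:**
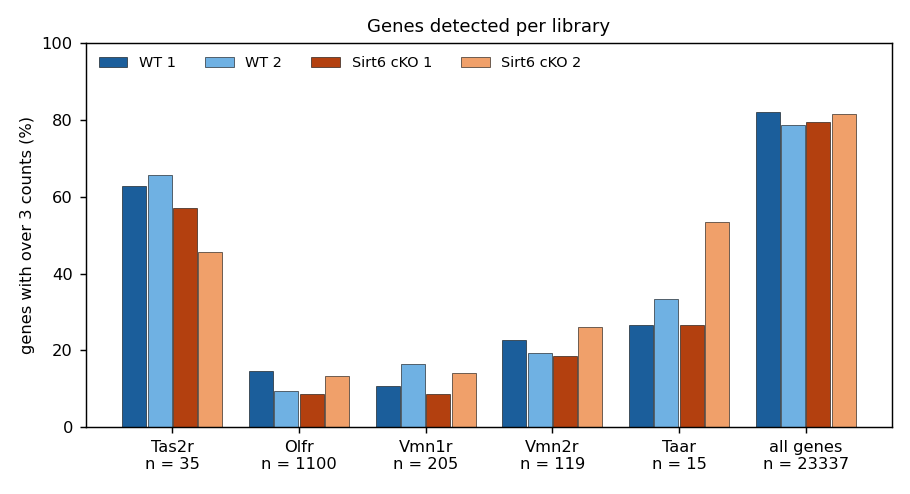
Bars give the percentage of genes with over 3 counts in each of the 4 libraries, for the *Tas2r* family, the olfactory (Olfr), vomeronasal (Vmn1r, Vmn2r) and trace amine (Taar) receptor families and all genes, with the number of genes under each name. The 2 Sirt6 cKO bars of the *Tas2r* family are below both WT bars, which is not so for any of the other receptor families or for all genes.

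A core of 12 *Tas2r* genes was detected in all 4 libraries: *Tas2r105*, *Tas2r108*, *Tas2r109*, *Tas2r110*, *Tas2r115*, *Tas2r118*, *Tas2r120*, *Tas2r126*, *Tas2r129*, *Tas2r131*, *Tas2r137* and *Tas2r138*. A further 5 (*Tas2r114*, *Tas2r122*, *Tas2r139*, *Tas2r140* and *Tas2r143*) had 0 counts everywhere, which allows up to 3 counts in each library. Of the 35 genes, 4 were above 3 counts in both WT libraries and neither Sirt6 cKO library, and 2 in both Sirt6 cKO libraries and neither WT library. Over all 23337 genes these patterns made up 0.758% and 0.703%. Single libraries also had receptors of their own, with 4 in WT 2 alone, 1 in WT 1 alone and 1 in Sirt6 cKO 1 alone. Even within the WT group, WT 1 and WT 2 shared 18 detected receptors, 81.8% of those in WT 1 and 78.3% of those in WT 2. The pair of Sirt6 cKO libraries shared 15, which were 75.0% and 93.8% of theirs.

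The summed level of the bitter receptors was lower in Sirt6 cKO. The 35 *Tas2r* genes added up to 54.6 CPM in WT 1 and 79.4 CPM in WT 2, against 30.3 CPM in Sirt6 cKO 1 and 12.1 CPM in Sirt6 cKO 2. The groups did not overlap, and the Sirt6 cKO mean of 21.2 ± 12.8 CPM (SD, n = 2) was 31.6% of the WT mean of 67.0 ± 17.5 CPM (SD, n = 2). Within the Sirt6 cKO pair the sums differed by more than within the WT pair in proportion, Sirt6 cKO 2 having the lowest level of the 4. The difference held in both chromosomal groups of genes: the first went from 31.5 and 39.2 CPM in WT to 18.4 and 7.36 CPM in Sirt6 cKO, and the second from 23.1 and 39.7 CPM to 11.7 and 4.76 CPM. Without *Tas2r108*, the gene with the most counts, the Sirt6 cKO mean of the other 34 was 29.7% of the WT mean. In these bulk samples, fewer receptor-expressing cells and less receptor RNA per cell cannot be told apart.

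The sweet and amino acid receptors had overlapping groups. Summed *Tas1r* levels were 2.11 and 8.05 CPM in WT and 5.05 and 3.57 CPM in Sirt6 cKO, so that both Sirt6 cKO libraries lay between the WT libraries. The log2 ratio of the means was −0.24, but it rested on *Tas1r1*, the member with the most counts, and was −1.08 for the other 2 genes. These summed to 1.80 and 5.0 CPM in WT and to 2.19 and 1.03 CPM in Sirt6 cKO, where Sirt6 cKO 1 lay between the WT libraries and Sirt6 cKO 2 below both. Other chemosensory families gave a scale for the size of the *Tas2r* difference. The Sirt6 cKO mean was 66.8% of the WT mean for 1100 *Olfr* genes (110.0 and 91.0 CPM in WT, 64.3 and 70.2 CPM in Sirt6 cKO) and 39.3% for 205 *Vmn1r* genes (11.3 and 17.4 CPM in WT, 5.12 and 6.16 CPM in Sirt6 cKO), again with no overlap between groups. For 119 *Vmn2r* and 15 *Taar* genes it was 77.1% and 77.4%, with overlapping groups.

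**Figure D2:**
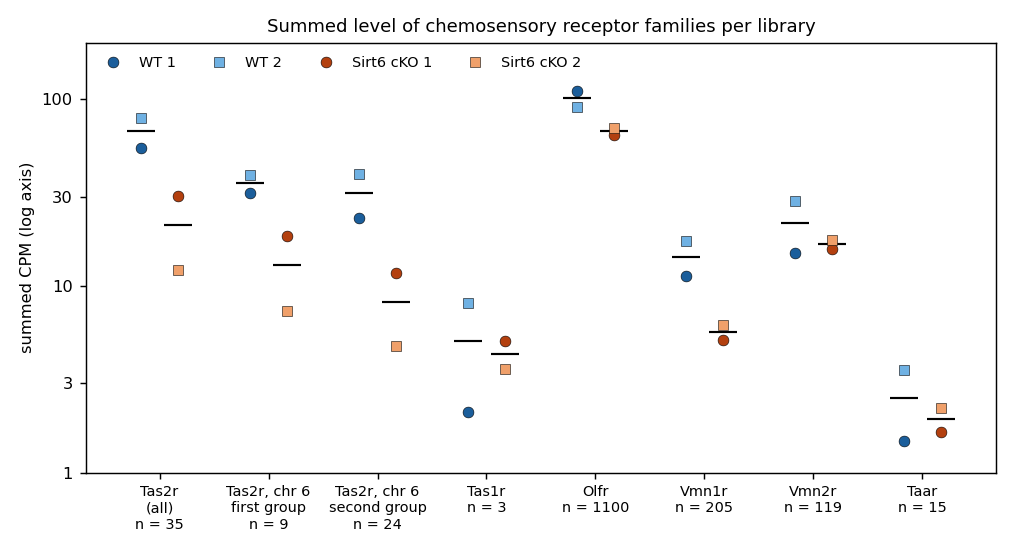
Each point is the summed CPM of one receptor family in one library, on a log axis, with the number of genes under each name and a line at the group mean. For all *Tas2r* genes and for both of their chromosome 6 groups the Sirt6 cKO points lie under the WT points, as they do for *Olfr* and *Vmn1r*, whereas the *Tas1r*, *Vmn2r* and *Taar* points of the groups overlap.

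*Tas2r108*, a receptor known to respond to denatonium, was the most abundant taste receptor in every library. It had counts of 1019 and 1274 in WT, and of 596 and 210 in Sirt6 cKO, or 17.8 ± 3.15 against 6.57 ± 4.67 CPM (SD, n = 2 each), and the groups did not overlap. The log2 fold change was −1.44 ± 0.58 (SE; edgeR adjusted p = 0.589), just outside an unadjusted p of 0.05. Without Sirt6 cKO 2, the lowest library, it was −0.87, and without Sirt6 cKO 1 it was −2.44 and inside that threshold. Its share of all *Tas2r* counts was 28.5% and 25.2% in WT and 32.6% and 27.0% in Sirt6 cKO. Unlike the levels, these shares overlapped between the groups. Per length, the deposited TPM of *Tas2r108* was 43.8 ± 8.62 in WT and 16.0 ± 11.3 in Sirt6 cKO (SD, n = 2 each).

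The next receptors in the WT order by TPM were *Tas2r138* (18.1 ± 4.90) and *Tas2r105* (17.9 ± 2.24), which do not differ from each other beyond their spread. In Sirt6 cKO they were 5th and 4th, at 3.01 ± 1.80 and 3.41 ± 2.95 TPM, behind *Tas2r137* (4.91 ± 3.34) and *Tas2r118* (4.40 ± 4.39), again within the spread of each other (SD, n = 2 in each case). *Tas2r138*, the mouse counterpart of the human phenylthiocarbamide receptor, had counts of 649 and 417 in WT, and of 48 and 125 in Sirt6 cKO. This was a log2 fold change of −2.58 ± 0.65 (SE; edgeR adjusted p = 0.541), with no overlap between groups and an unadjusted p under 0.05 whichever library was left out. *Tas2r105*, the mouse cycloheximide receptor, had counts of 532 and 421 in WT, and of 138 and 35 in Sirt6 cKO, also with no overlap. The log2 fold change of −2.38 ± 0.80 (SE; edgeR adjusted p = 0.548) was under an unadjusted p of 0.05, but not without WT 1, where it was −2.25. With Sirt6 cKO 1 left out it was −3.75 and with Sirt6 cKO 2 left out −1.70, under that threshold in both cases.

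Of the other receptors with at least 500 counts in all, *Tas2r102* and *Tas2r129* also had every WT library above every Sirt6 cKO library. *Tas2r102* had counts of 249 and 285 in WT, and of 46 and 0 in Sirt6 cKO. Fitted at a log2 fold change of −3.44 ± 1.85 (SE; edgeR adjusted p = 0.666), it was −2.46 without the library at 0 and −11.06, a value that depends on the prior count, without the other. *Tas2r129* had counts of 110 and 442 in WT, and of 57 and 7 in Sirt6 cKO, with a log2 fold change of −3.03 ± 1.32 (SE; edgeR adjusted p = 0.615) that was −1.67 without WT 2 and, with an unadjusted p under 0.05, −3.75 without WT 1 and −5.28 without Sirt6 cKO 1. *Tas2r118* and *Tas2r137* did not separate the groups. *Tas2r118* had counts of 176 and 426 in WT, and of 187 and 35 in Sirt6 cKO, and a log2 fold change of −1.36 ± 1.0 (SE; edgeR adjusted p = 0.759). *Tas2r137*, whose gene lies next to *Tas2r108*, had counts of 161 and 286 in WT, and of 202 and 75 in Sirt6 cKO, and a log2 fold change of −0.62 ± 0.79 (SE; edgeR adjusted p = 0.883). For both, Sirt6 cKO 1 lay between the WT libraries and Sirt6 cKO 2 below them, and the values turned on single libraries. Without Sirt6 cKO 1 the log2 fold change of *Tas2r118* was −3.10 with an unadjusted p under 0.05, while leaving out WT 2, Sirt6 cKO 2 or WT 1 gave −0.56, −0.62 and −1.91. For *Tas2r137* the value became −1.57 when Sirt6 cKO 1 was omitted, −0.08 when Sirt6 cKO 2 was, −0.12 when WT 2 was and −1.02 when WT 1 was.

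**Figure D3:**
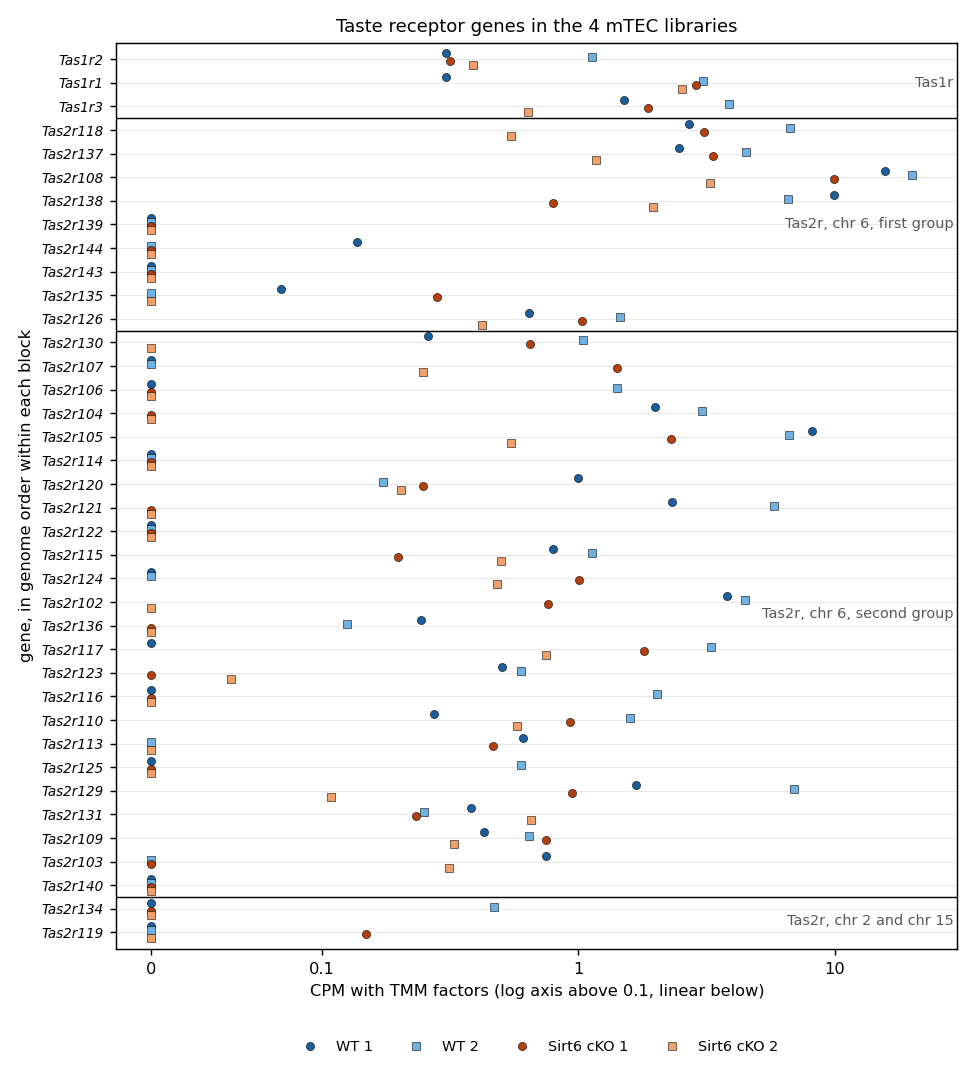
Each point is the CPM of one taste receptor gene in one library, with genes in genome order within 4 blocks (*Tas1r*, the first and second *Tas2r* groups of chromosome 6, and the *Tas2r* genes of chromosomes 2 and 15), on an axis that is logarithmic above 0.1 CPM and linear below. *Tas2r108* is the rightmost gene in every library, and *Tas2r104* and *Tas2r121* show 2 WT points above 1 CPM and both Sirt6 cKO points at 0.

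Receptors seen in one group and not in the other went in both directions. *Tas2r121* had counts of 151 and 368 in WT, and of 0 in both Sirt6 cKO libraries. Set against 3 counts per library, it was at least 83.9-fold lower in Sirt6 cKO (edgeR adjusted p = 0.541), or at least 47.8-fold with WT 1 as the only WT library. *Tas2r104* had counts of 130 and 192 in WT, and of 0 in both Sirt6 cKO libraries, at least 51.9-fold lower (edgeR adjusted p = 0.541). Both were under an unadjusted edgeR p of 0.05 with all libraries. They passed the filter on low counts, and so entered that test, through the WT libraries alone, so this p adds no support to the counts. *Tas2r123* had counts of 33 and 38 in WT, and of 0 and 3 in Sirt6 cKO (edgeR adjusted p = 0.631), while its closest relative *Tas2r110*, which shares the 120-base run given above, had counts of 18 and 101 in WT, and of 56 and 37 in Sirt6 cKO. *Tas2r136* had 16 and 8 counts in WT and 0 in Sirt6 cKO and was too low to be tested.

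*Tas2r107* and *Tas2r124* were on the other side. They passed the filter on low counts through the Sirt6 cKO libraries alone, so their p likewise adds no support to the counts. *Tas2r107* had 0 counts in both WT libraries and 86 and 16 in Sirt6 cKO, at least 18.0-fold higher (edgeR adjusted p = 0.541). This bound rested on Sirt6 cKO 1, since Sirt6 cKO 2 alone gave at least 5.37-fold and Sirt6 cKO 1 alone at least 30.7-fold. It was under an unadjusted p of 0.05 with all libraries and without Sirt6 cKO 2, but not without WT 1, WT 2 or Sirt6 cKO 1, where the fitted log2 fold changes, which depend on the prior count and are no bound, were 8.70, 8.73 and 7.02 against 8.73 with all 4. *Tas2r124* had 0 counts in both WT libraries and 61 and 31 in Sirt6 cKO, at least 16.1-fold higher (edgeR adjusted p = 0.541), or at least 10.4-fold from Sirt6 cKO 2 alone. It too was under an unadjusted p of 0.05, but not without Sirt6 cKO 1 (7.97 on the fitted log2 scale) or Sirt6 cKO 2 (8.99), against 8.57 with all 4. The gene next to *Tas2r124* and closest to it in sequence, *Tas2r102*, was the one described above with 249 and 285 counts in WT. On chromosome 6, *Tas2r107* is likewise a neighbour of receptors with more counts in WT, since *Tas2r106*, *Tas2r104* and *Tas2r105* follow it in that order and on the same strand.

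A count of 0 beside a far higher count in the other library of the same group also occurred. *Tas2r117* had counts of 0 and 210 in WT, and of 109 and 48 in Sirt6 cKO. *Tas2r116* had 0 and 129 counts in WT and *Tas2r106* 0 and 90, both with 0 in Sirt6 cKO. The counts come from transcripts that StringTie assembled and quantified in each sample, and whether a receptor listed at 0 had no reads was not tested, so the lower bounds given above are bounds for the deposited counts.

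The remaining receptors with at least 50 counts had overlapping groups, except *Tas2r115* with 52 and 72 counts in WT and 12 and 32 in Sirt6 cKO. *Tas2r126* had counts of 42 and 92 in WT, and of 62 and 27 in Sirt6 cKO, *Tas2r130* had 17 and 66 in WT and 39 and 0 in Sirt6 cKO, and *Tas2r120* had 65 and 11 in WT and 15 and 13 in Sirt6 cKO. *Tas2r109* had 28 and 41 in WT and 45 and 21 in Sirt6 cKO, and *Tas2r131* 25 and 16 in WT and 14 and 42 in Sirt6 cKO. *Tas2r103* (49 and 0 in WT, 0 and 20 in Sirt6 cKO) and *Tas2r113* (40 and 0 in WT, 28 and 0 in Sirt6 cKO) were each seen in 1 library of each group. The other 6 with a count, which include *Tas2r136*, had at most 38 counts in any library.

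Among the *Tas1r* genes the 2 WT libraries differed more than the groups. *Tas1r1*, the subunit particular to the amino acid receptor, had counts of 20 and 194 in WT, and of 173 and 163 in Sirt6 cKO. Between groups the log2 fold change was 0.69 ± 1.15 (SE; edgeR adjusted p = 0.917), and it was −0.20 without WT 1 and 3.14, with an unadjusted p under 0.05, without WT 2. *Tas1r2*, the subunit particular to the sugar receptor, had counts of 20 and 72 in WT, and of 19 and 25 in Sirt6 cKO, with a log2 fold change of −1.02 ± 1.37 (SE; edgeR adjusted p = 0.887) that was 0.21 without WT 2. *Tas1r3*, the shared subunit, had counts of 98 and 246 in WT, and of 113 and 41 in Sirt6 cKO, with a log2 fold change of −1.09 ± 0.96 (SE; edgeR adjusted p = 0.806). Leaving out 1 library at a time moved it to −0.25 (WT 2 out), −0.54 (Sirt6 cKO 2 out), −1.65 (WT 1 out) and −2.06 (Sirt6 cKO 1 out).

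Across the family, 25 of the 38 genes passed the filter on low counts and were tested, among them 22 *Tas2r* genes. A gene high in one group alone could pass through that group. *Tas2r104* and *Tas2r121* (0 counts in Sirt6 cKO), *Tas2r123* (0 and 3 counts in Sirt6 cKO) and *Tas2r107* and *Tas2r124* (0 counts in WT) did so. The 25 are therefore not the whole family, and the edgeR numbers over them describe these genes alone. At an unadjusted edgeR p under 0.05, 4 were lower in Sirt6 cKO (*Tas2r104*, *Tas2r105*, *Tas2r121* and *Tas2r138*) and 2 higher (*Tas2r107* and *Tas2r124*), where 3.32% of the 18547 genes tested were lower and 5.27% higher. How many receptors were called changed with the library left out. Those fits tested 27 to 31 members in place of 25, so their counts are not set beside these. None passed an adjusted p of 0.05 in edgeR, which called 0.00539% of all genes, a single gene (*Amd2*). The log2 fold change was below 0 for 20 of the 25, with a median of −1.09, also with the genes seen in one group alone set at their bounds, against a median of 0.0 over all genes tested. Every WT library lay above every Sirt6 cKO library for 9 of the 25 and the reverse held for 2, while these patterns covered 20.3% and 21.6% of all genes tested. DESeq2, the tool named in the study's methods, fitted 33 of the genes and gave 5 of those no adjusted p. It called 3 lower at an adjusted p under 0.05 (*Tas2r121*, *Tas2r104* and *Tas2r138*, with DESeq2 adjusted p of 6.73e-06, 0.000207 and 0.0276) and none higher, where it called 0.743% of the 20997 genes it fitted lower and 0.957% higher at that adjusted threshold. At an unadjusted DESeq2 p under 0.05, 9 members were lower and 2 higher, against 4.38% and 5.8% of the genes fitted.

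Downstream of the receptors, genes of the taste cascade were mostly measured from far more counts. The taste transduction list held 16 genes, of which *Calhm3* and *Rgs21* were not analysed here and 12 were tested. At an unadjusted edgeR p under 0.05, 5 of the 12 were lower in Sirt6 cKO and 1 was higher, against 3.32% and 5.27% of all genes tested. None passed an adjusted p of 0.05, and the median log2 fold change was −0.62. The summed level of the list was 650 and 697 CPM in WT and 369 and 386 CPM in Sirt6 cKO. *Gnat3*, which encodes the gustducin alpha subunit that couples to the receptors, had counts of 809 and 750 in WT, and of 112 and 76 in Sirt6 cKO. This was a log2 fold change of −2.99 ± 0.45 (SE; edgeR adjusted p = 0.54), and the groups were far apart relative to their spread. *Gnb3*, the beta subunit of the same G protein, had counts of 18186 and 20275 in WT, and of 6421 and 7662 in Sirt6 cKO, with a log2 fold change of −1.40 ± 0.18 (SE; edgeR adjusted p = 0.366). The gamma subunit gene *Gng13*, too low to be tested, had counts of 5 and 18 in WT, and of 0 in both Sirt6 cKO libraries.

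Further along the cascade, *Trpm5*, the cation channel that depolarises the cell, had counts of 4365 and 5666 in WT, and of 2660 and 2193 in Sirt6 cKO, with a log2 fold change of −0.99 ± 0.27 (SE; edgeR adjusted p = 0.541). *Rtp4*, a chaperone of receptor transport, had counts of 5321 and 4660 in WT, and of 2360 and 2610 in Sirt6 cKO, with a log2 fold change of −0.95 ± 0.22 (SE; edgeR adjusted p = 0.541). *Plcb2*, the phospholipase C of taste cells, had counts of 3017 and 3112 in WT, and of 1921 and 1680 in Sirt6 cKO, with a log2 fold change of −0.71 ± 0.25 (SE; edgeR adjusted p = 0.548). *Itpr3*, the inositol trisphosphate receptor of the cascade, was the exception, with 1775 and 1275 counts in WT and 3228 and 2539 in Sirt6 cKO and a log2 fold change of 0.98 ± 0.30 (SE; edgeR adjusted p = 0.541). All 6 were under an unadjusted p of 0.05 with all libraries. *Plcb2* missed it whichever library was left out (log2 fold change from −0.86 to −0.59), *Trpm5* without WT 2 (−0.77) or Sirt6 cKO 2 (−0.84), and *Itpr3* without WT 2 (0.78) or Sirt6 cKO 1 (0.75). The list then held 3 genes lower without WT 2 and 4 without any one of the other libraries.

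The tuft cell list held 20 genes, of which *Sh2d6* was not analysed here. Of the 19 tested, 10 were lower at an unadjusted edgeR p under 0.05 and none higher, against 3.32% and 5.27% of all genes tested. None passed an adjusted p of 0.05, and the median log2 fold change was −0.87. Summed levels were 772 and 865 CPM in WT and 503 and 469 CPM in Sirt6 cKO. The 6 with the smallest p were *Avil* (an actin-binding protein of tuft cell microvilli), *Bmx* (a kinase), *Alox5* (leukotriene synthesis), *Lrmp*, *Sh2d7* and *Hpgds* (prostaglandin D synthesis), with log2 fold changes of −1.06 ± 0.19, −1.29 ± 0.27, −1.71 ± 0.48, −0.87 ± 0.25, −1.32 ± 0.39 and −0.90 ± 0.29 (SE). *Avil* and *Bmx* were under an unadjusted edgeR p of 0.05 with any library left out. *Alox5* and *Sh2d7* were not without WT 2 or Sirt6 cKO 2 (log2 fold change of −1.31 in both cases for *Alox5*, −0.93 and −1.14 for *Sh2d7*), *Lrmp* not without WT 1 or Sirt6 cKO 2 (−0.74 and −0.64) and *Hpgds* not without WT 1 or Sirt6 cKO 1 (−0.73 and −0.67). The number of list members lower fell from 10 to 6 without WT 1 or Sirt6 cKO 1 and to 4 without WT 2 or Sirt6 cKO 2.

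Not every tuft cell gene went this way. *Pou2f3*, the transcription factor that tuft cells require, had counts of 2512 and 2810 in WT, and of 3196 and 2866 in Sirt6 cKO, a log2 fold change of 0.24 ± 0.24 (SE; edgeR adjusted p = 0.838). *Gfi1b*, another tuft cell factor, had counts of 1003 and 2091 in WT, and of 2330 and 2056 in Sirt6 cKO, and *Dclk1*, a kinase used to mark tuft cells, 1287 and 2092 in WT and 1865 and 2333 in Sirt6 cKO. Their log2 fold changes were 0.55 ± 0.42 and 0.36 ± 0.34 (SE; edgeR adjusted p = 0.769 and 0.824). The 7 tuft cell markers together summed to 280 and 340 CPM in WT and 229 and 211 CPM in Sirt6 cKO. Of the 7, 3 (*Trpm5*, *Avil* and *Gnat3*) were lower at an unadjusted edgeR p under 0.05, against 3.32% of all genes tested. *Avil* was already counted in the tuft cell list, and *Trpm5* and *Gnat3* in the taste transduction list, so the markers are no separate evidence. Both the summed *Tas2r* level and the sum of the 7 markers were lower in Sirt6 cKO, but *Pou2f3*, *Gfi1b* and *Dclk1* were not. What part the number of tuft cells has in the *Tas2r* level was not tested.

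**Figure D4:**
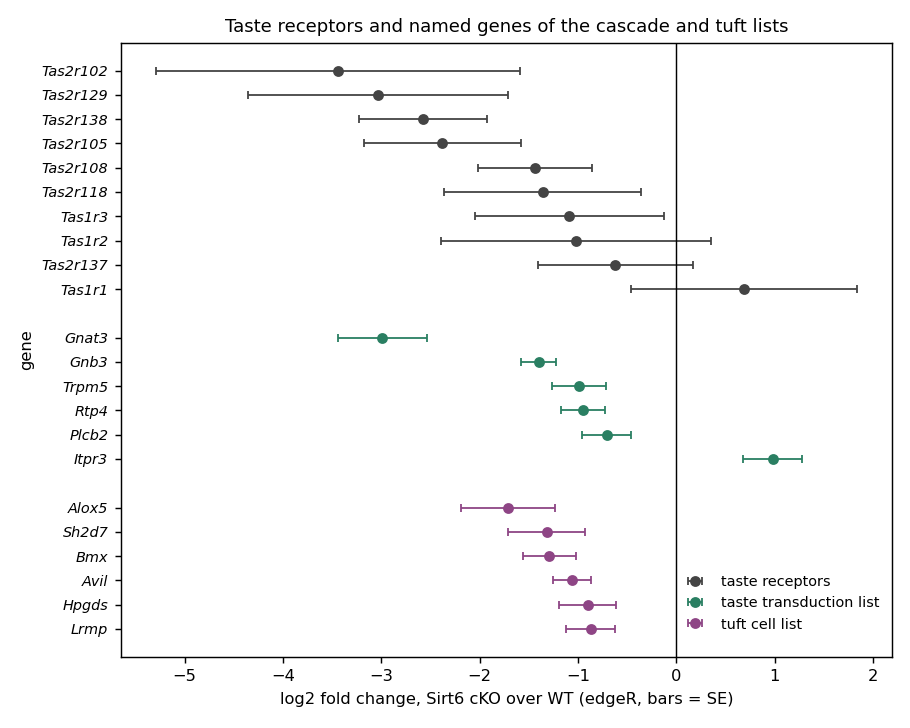
Points give the log2 fold change of Sirt6 cKO over WT from edgeR, with bars of 1 SE, for taste receptors with counts in both groups that had at least 500 counts, a p under 0.05 or a *Tas1r* name, and for the 6 genes with the smallest p from each of the taste transduction and tuft cell lists. Receptors on the left have wide bars, *Gnat3* and *Gnb3* have narrow ones, and *Itpr3* and *Tas1r1* are the genes to the right of 0.

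Markers of other cell types that the sorted fraction could hold were present in every library, although the CD45- and Ly51- gates are meant to remove blood cells and cortical epithelium. The 7 macrophage and dendritic cell markers moved with the groups, with 5514 and 3188 CPM in WT and 2039 and 2173 CPM in Sirt6 cKO. None of the 7 was at 0. At an unadjusted edgeR p under 0.05, 4 of these markers (*Lyz2*, *C1qa*, *C1qb* and *Cd68*) were lower, against 3.32% of all genes tested. WT 1 had the most of them, while WT 2 had the most *Tas2r* RNA. The 9 thymocyte markers summed to 1415 and 979 CPM in WT and 1184 and 693 CPM in Sirt6 cKO, and the 4 B cell markers to 180 and 139 CPM and to 148 and 110 CPM, both lowest in Sirt6 cKO 2, as was the *Tas2r* sum. Cortical epithelial markers (6 genes) ranged from 675 to 965 CPM, and fibroblast and endothelial markers (6 genes) from 547 to 650 CPM. The 5 markers of sour-sensing type III taste cells ranged from 57.5 to 125 CPM and the 2 of supporting type I taste cells from 131 to 234 CPM. The part of these cells in the levels of the receptors, and of the taste transduction and tuft cell lists, was not tested.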

How the data were processed

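RNA-seq of sorted mTECs was used, 2 libraries for each genotype. Per the study's methods and the submitters' processing notes, the authors used FastQC and Trim Galore for quality and adaptors, HISAT2 (2.1.0) for alignment to mm10, and then assembled and quantified transcripts with StringTie (1.3.3). The gene annotation and the strand setting were not given in the sources used here. The deposited gene table holds whole-number counts as the authors left them, not normalized. The deposited TPM files, scaled per length, were handled as a score because each has 1 line that names no gene and equals the sum of the other values (100% of it); that line was left out. The authors' columns of their own fold changes and p-values were not used.

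Counts were normalized with TMM factors and tested with edgeR (4.0.16) in R (4.3.3) by the quasi-likelihood test after filterByExpr (minimum count 10, minimum total 15), with Benjamini-Hochberg adjustment over all 18547 genes tested; the biological coefficient of variation was 0.557. CPM includes the TMM factors. The SE of an edgeR log2 fold change was its absolute value divided by the square root of the quasi-likelihood F statistic. For a receptor at 0 counts in a library, this SE depends on the prior count, as the fold change does. Alternatives were upper quartile factors, library size alone, DESeq2 (1.42.0), no filter, TPM over 0.1 in all libraries, a replicate block, limma (3.58.1) on log2(TPM + 1) and log2(TPM + 0.1), and each library left out. Detection means over 3 counts, and lower bounds of fold take 3 counts per library in the group at 0. Intervals of that kind cover counting error only.

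Members were found by symbol. Those with at least 50 counts were given by library, and those with at least 500 counts, an unadjusted p under 0.05 or a *Tas1r* name with fold change and test. From the taste transduction and tuft cell lists the 6 genes with the smallest p were named, and *Gng13*, *Pou2f3*, *Gfi1b* and *Dclk1* beside them, which were chosen after their values were seen. Members, lists and motifs were chosen with earlier results of these data known. Transcripts were those of GENCODE (release M21) and promoters those of RefSeq.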

Additional observations from a re-analysis of the deposited data

How the results depend on the processing

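The number of receptors detected per library and the summed levels stayed close to the reported values under each detection limit and scaling tried. The number of receptors lower at an unadjusted p under 0.05 was 9 of 33 with DESeq2 and 8 of 25 with limma on either TPM scale, against 4 of 25 in the main fit. Over all genes fitted, DESeq2 called 4.38% lower at that threshold, against 3.32% in the main fit. The share over all genes is not given here for limma. At an adjusted p, 3 (*Tas2r104*, *Tas2r121* and *Tas2r138*) were lower with DESeq2, against 0. The number higher was 0 of 15 with the filter on TPM and 0 of 25 with the replicate block, against 2 of 25. In the taste transduction list DESeq2 called 3 genes (*Gnb3*, *Gnat3* and *Rtp4*) lower at an adjusted p, and limma called 0 higher at an unadjusted p on either scale. With libraries left out, 3 to 4 genes of that list were lower and 0 to 2 higher, and 4 to 6 of the tuft cell list were lower and 0 to 1 higher. DESeq2 called 3 tuft cell genes (*Avil*, *Bmx* and *Alox5*) lower at an adjusted p. The log2 fold change changed sign for *Tas1r1* without WT 1 and for *Tas1r2* without WT 2, with ranges of −0.2 to 3.14 and −1.7 to 0.21 over the libraries left out. Over the 26 named receptor and list genes, 256 of 307 alternative values kept direction and side of the threshold, 29 kept direction and lost p under 0.05, and 20 gained it. *Tas2r108* was under an unadjusted p of 0.05 with every other setting that used all 4 libraries except the replicate block. Unless the setting's own construction shows it, the cause was not tested.

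The replicate numbers are shared between groups. Deviations of equally numbered libraries had a correlation of −0.0544 over 18547 genes (2 pairs). It rests on a single difference within each group, so it cannot show whether equal numbers stand for a shared litter or batch. The main fit took the libraries as unpaired. With the replicate block in edgeR, *Tas2r107* (log2 fold change 8.53), *Tas2r124* (8.53) and *Plcb2* (−0.72) were no longer under an unadjusted p of 0.05, and 0 receptors were higher in place of 2.

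The edgeR fits without 1 library take the lone sample of a group to vary like the other group. With 2 libraries a group, 1 library moved the fold change of several of the receptors by over 1.5 times, and the receptors past an adjusted p of 0.05 depended on the tool.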
